A study of Mus musculus with 5 samples.

Results

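The amino acid and neurotransmitter transporter genes described here belong to the SLC1, SLC3, SLC6, SLC7, SLC36, SLC38 and SLC43 families (solute carriers, numbered by family and member). They were all genes of these families in the count tables whose symbol ends in the member number. Slc6a20a and Slc6a20b, whose symbols end in a letter, were left out. The tables held 51 such transporter genes among 29495 genes. Of the 51, 35 had 10 or more counts in at least 2 libraries and were tested, of 16051 genes tested in all. RNA was sequenced from mouse glioma cells of genotype p53-/-;NF1-/-;tdTomato+/-, which came from a tumor model of mixed CD-1 and C57BL/6 background, were grown with olfactory bulb (OB) neurons of C57BL/6 pups, and were sorted away from the neurons on the red protein tdTomato. The 2 control libraries (replicates 1 and 2) came from co-cultured cells without added growth factor. In the 3 IGF-1 libraries (replicates 3, 4 and 5) the co-culture had received IGF-1, insulin-like growth factor 1, at 20 ng/mL overnight. Both groups lack p53 and NF1, and the culture media held serum and glutamine, with insulin at plating and B27 later. The labels do not say whether the libraries came from separate cultures, so p-values measure the spread between these libraries only, which may be technical.

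Solute carriers of these families move amino acids and small transmitters across membranes. SLC1 carriers take up glutamate or exchange neutral amino acids. Heteromeric exchangers pair a SLC7 light chain, which carries the substrate, with a SLC3 heavy chain, which brings it to the cell surface, and other SLC7 members carry cationic amino acids alone. SLC38 members move glutamine and other neutral amino acids with sodium, and SLC36 includes carriers that use protons. SLC43 members are facilitated carriers, and SLC6 members use sodium and chloride to take up transmitters, taurine, creatine or amino acids. In brain, astrocytes clear glutamate through SLC1 carriers, and glioma cells are known for exporting glutamate in exchange for cystine through xCT, the product of Slc7a11. Amino acid supply through these carriers feeds the growth kinase mTORC1, and the stress transcription factor ATF4 is known to activate several of their genes.

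Libraries held 16944315 to 20144181 counts, of which the 51 genes took 0.313% to 0.335%. Values below are CPM, read counts divided by the TMM-scaled library size, and a log2 change is that of IGF-1 minus control. IGF-1 replicate 5 stood apart. Over the 9779 genes averaging at least 10 CPM, log2 differences had an SD of 0.12 for the pair of controls, 0.11 for IGF-1 replicates 3 and 4 as a pair, and 0.22 when replicate 5 was set against one of these 2. Over the 25 transporter genes of that level it was 0.13, 0.11, and 0.38 and 0.41 (against replicates 3 and 4). The last 2 values were 0.26 and 0.31 when Slc7a11 was left out. Every result is therefore given with and without replicate 5. Ribosomal protein genes took 2.72% of counts in replicate 5 and 3.45% to 3.71% in the others, and mitochondrially encoded genes took 3.22% against 2.78% to 3.14%; the part of either in the results was not tested.

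Per kilobase of transcript, the leading transporter genes of these cells encoded the 2 chains of one exchanger. Slc3a2, the heavy chain also known as CD98, stood at 133 CPM per kilobase over the 5 libraries, and Slc7a5, the LAT1 light chain that brings in large neutral amino acids such as leucine, at 116. Next on this scale were the glutamine carriers Slc38a2 (73.4) and Slc38a1 (60.6), the creatine transporter gene Slc6a8 (58.5), and Slc7a1 (44.0), which takes up arginine and lysine. Slc6a15, a branched-chain amino acid carrier, followed at 33.0, Slc38a10 at 32.1, the taurine transporter gene Slc6a6 at 29.2 and the exchanger light chain gene Slc7a6 at 28.3. Genes of SLC1 lay lower on the per-kilobase scale, with the glial glutamate carrier genes Slc1a3 (GLAST) at 28.2 and Slc1a2 (GLT-1) at 6.95, and Slc7a11 was at 1.42. Lengths are those of a principal transcript of an older annotation, and the isoforms used in these cells were not determined.

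**Figure D1:**
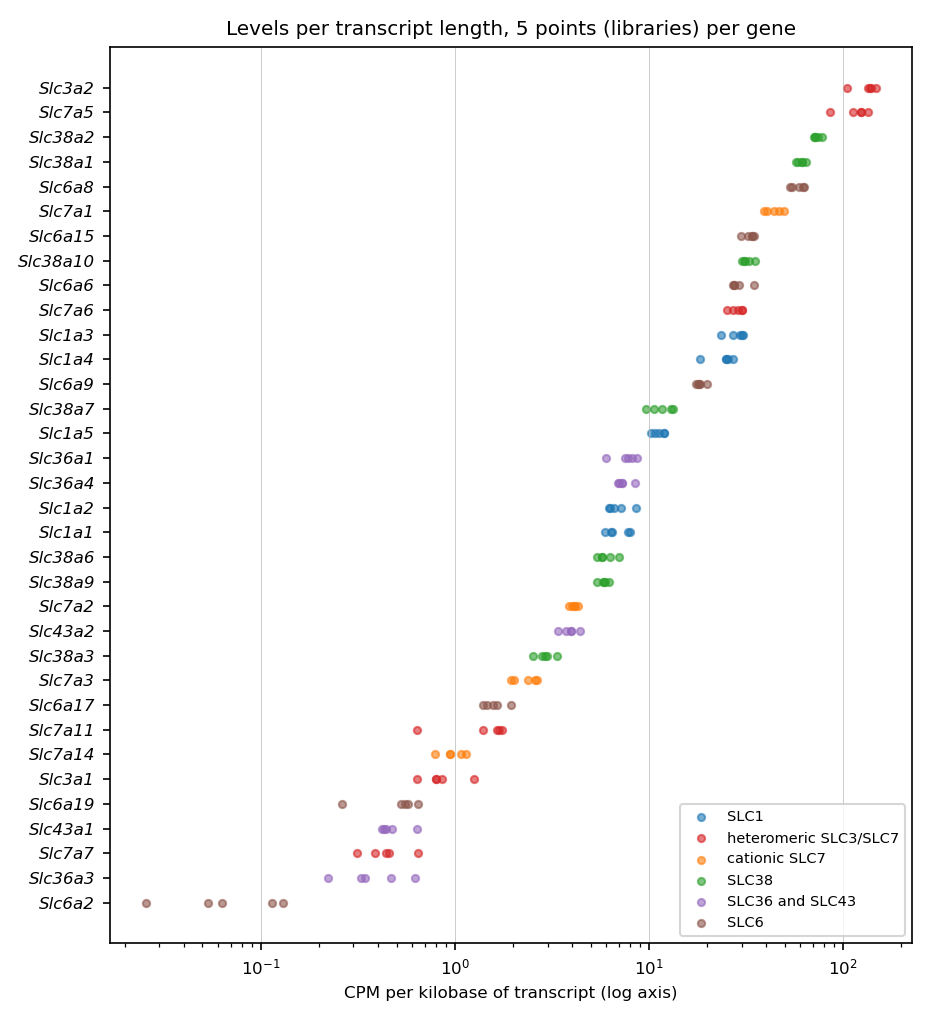
Level of 34 of the 35 tested transporter genes per kilobase of transcript (log axis), with 1 point per library and genes ordered by their mean over the 5 libraries, coloured by family. Slc3a2 (mean 133) and Slc7a5 (116) lead, and Slc6a2 is the lowest drawn.

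Among SLC6 carriers of transmitters, those for monoamines and several for GABA or glycine were scarce. The SLC1 glutamate carrier genes Slc1a1, Slc1a2 and Slc1a3, described below, were well detected. Slc6a2, for noradrenaline, had 14, 12, 6, 3 and 8 counts in libraries 1 to 5, and Slc6a4, for serotonin, had 0, 0, 9, 4 and 3. No library had over 3 counts of Slc6a11 (GABA), Slc6a12 (betaine and GABA) or Slc6a5, the neuronal glycine carrier gene. In contrast Slc6a9, the glycine transporter 1 gene known from glia, stood at 69.2, 63.2, 62.4, 60.9 and 63.8 CPM. Further genes under the count minimum were Slc1a6, Slc1a7, Slc7a4, Slc7a8, Slc7a10, Slc36a2, Slc38a5, Slc38a8, Slc43a3, Slc6a14, Slc6a18 and Slc6a21. The nearest to the minimum were Slc7a4 and Slc7a10, each with 1 control library over 10 counts (13 and 12), and Slc6a2 was just inside it.

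Levels in single libraries showed the same order of magnitude for each abundant gene, and the largest departure was that of Slc7a11 in IGF-1 replicate 5.

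**Figure D2:**
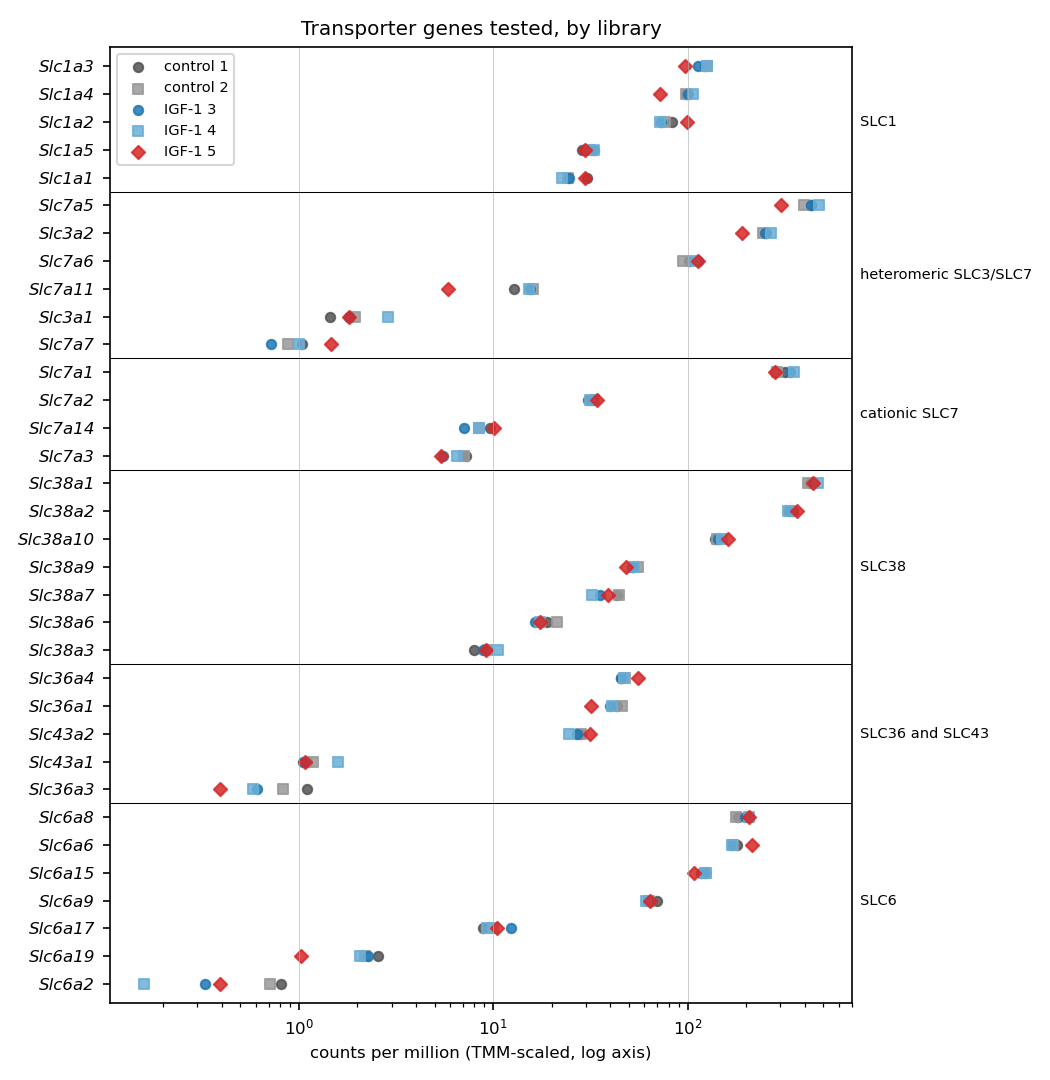
CPM (log axis) of 34 of the 35 tested genes in each of the 5 libraries, grouped by family; grey symbols are controls, blue are IGF-1 replicates 3 and 4, and the red diamond is IGF-1 replicate 5. For Slc7a11 the red diamond lies at 5.87 CPM and the other 4 points between 12.8 and 16.1.

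The comparison of IGF-1 with control asks which transporter transcripts differed after overnight stimulation. With all 5 libraries, the quasi-likelihood test of edgeR, with p-values adjusted by Benjamini-Hochberg, called 0 of 35 transporter genes at an adjusted p under 0.05, where it called 1.02% of all genes tested. DESeq2 also called 0, and at an unadjusted p under 0.05 edgeR placed 2 higher (Slc6a8, Slc7a6) and 4 lower (Slc38a7, Slc36a1, Slc38a6, Slc6a2), where 1136 of all genes tested were higher and 879 lower. Slc6a2 met the count minimum only through the 2 controls, where it is high, so its place among the lower genes is shaped by that filter. Values of the 2 groups did not overlap for 10 genes, 4 higher and 6 lower, where 33% of all genes tested had no overlap. The median log2 change was -0.04 over the 35 genes and -0.007 over all genes tested.

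Without IGF-1 replicate 5, 5 of the 35 genes rose and 1 fell by the same test, where 5.43% of 15701 genes tested were called higher and 3.64% lower. The 5 were Slc7a1, Slc6a8, Slc7a5, Slc7a6 and Slc38a1, and the fall was that of Slc38a7. These changes were small: 0.11 to 0.19 upward on the log2 scale, and -0.37 for Slc38a7. DESeq2 without replicate 5 called 3 of them, Slc7a1, Slc6a8 and Slc38a7. The median log2 change was then -0.009 over the 35 genes and -0.006 over all genes.

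**Figure D3:**
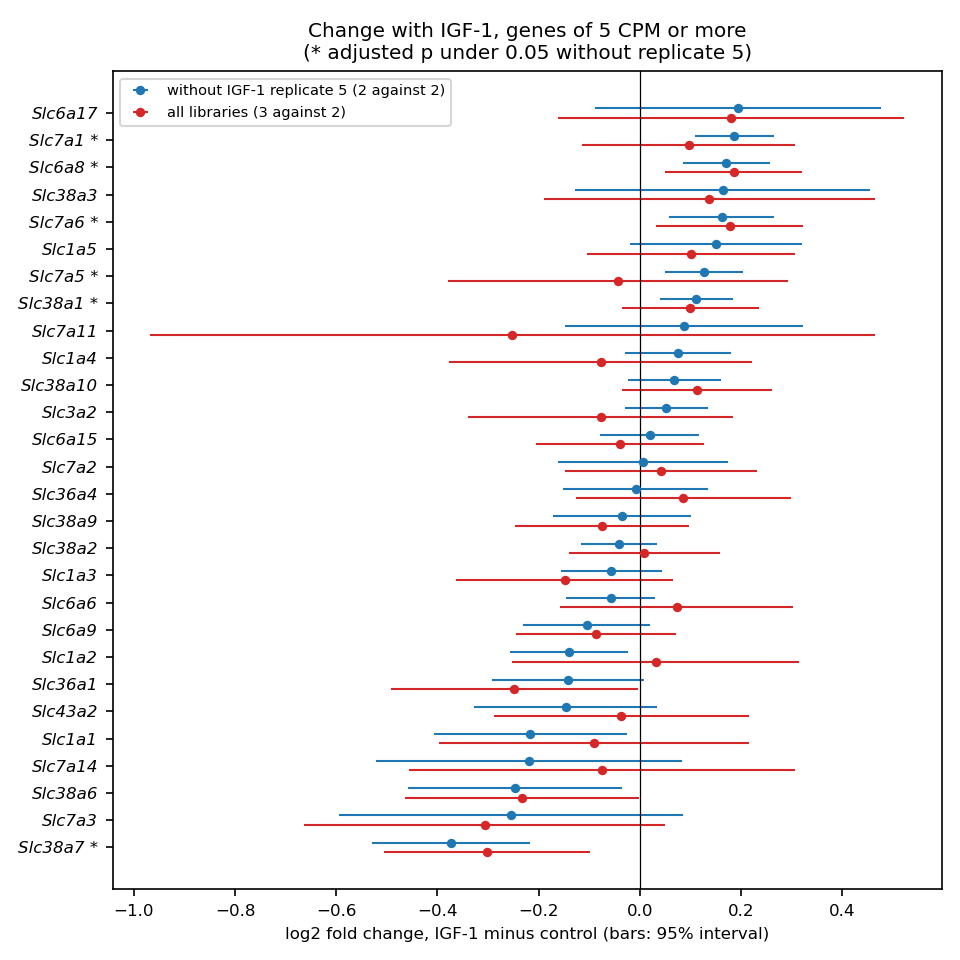
Log2 fold change (IGF-1 minus control) with its 95% interval for the 28 transporter genes averaging 5 CPM or more, from all libraries (red) and without IGF-1 replicate 5 (blue); an asterisk marks the 6 genes called without replicate 5. Intervals narrow without replicate 5, and those of Slc7a5, Slc7a11, Slc1a4 and Slc3a2 shift upward.

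Among the heteromeric exchangers, Slc7a5 was at 433 and 395 CPM in the controls and at 434, 472 and 301 in IGF-1 replicates 3, 4 and 5. Replicate 5 lay below both controls and replicate 3 level with the higher control. The log2 change was -0.04 with all libraries (SE 0.15, adjusted p = 0.929 by edgeR) and 0.13 without replicate 5 (SE 0.04, adjusted p = 0.0211). That call rested on single libraries, since with control replicate 2 or IGF-1 replicate 4 also left out the adjusted p was 0.521 or 0.546, and by DESeq2 it was 0.532. Its heavy chain partner Slc3a2 was at 252 and 245 CPM in the controls and at 249, 267 and 191 with IGF-1, again lowest in replicate 5. Its log2 change was -0.08 with a 95% interval of -0.34 to 0.18, and 0.05 (-0.03 to 0.13) without replicate 5.

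Slc7a6, a light chain that exchanges cationic for neutral amino acids, stood at 102 and 94.9 CPM in the controls and at 113, 107 and 113 with IGF-1. All IGF-1 libraries lay above both controls, replicate 5 included. The log2 change was 0.18 (SE 0.07, adjusted p = 0.295) with all libraries and 0.16 (SE 0.05, adjusted p = 0.0337) without replicate 5. With control replicate 2 or IGF-1 replicate 3 also left out, the adjusted p rose to 0.362 or 0.299, and it was 0.193 by DESeq2 and 0.0584 with library totals. Of the other tested genes of this class, Slc7a11 is described with replicate 5 below, and the remaining 2 had few counts: Slc3a1, the rBAT heavy chain gene, was at 1.44 to 2.86 CPM, and the light chain gene Slc7a7 at 0.716 to 1.47.

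Of the carriers of cationic amino acids, Slc7a1 (CAT-1) was the most abundant, at 316 and 290 CPM in the controls and at 336, 355 and 281 with IGF-1. Replicates 3 and 4 were above both controls and replicate 5 below both. Its log2 change was 0.10 with all libraries (SE 0.09, adjusted p = 0.713) and 0.19 without replicate 5 (SE 0.04, adjusted p = 3.61e-04). That call was kept by DESeq2 (adjusted p = 0.0106) and lost when control replicate 2 was also left out (0.0976). Slc7a2 (CAT-2), at 30.8 and 32.8 CPM in the controls and at 31.6 to 34.2 with IGF-1, had a log2 change of 0.04 (-0.15 to 0.23). Slc7a3 (CAT-3) was lower in each IGF-1 library, at 5.51, 6.51 and 5.38 against 7.27 and 7.08 CPM, but did not pass (log2 -0.31, adjusted p = 0.464; -0.25 and 0.422 without replicate 5). The lysosome-associated Slc7a14 stood at 9.58 and 8.43 CPM in the controls and at 7.05 to 10.1 with IGF-1, and the groups overlapped.

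Among the SLC38 carriers, Slc38a7 was the transporter gene with the smallest p in both fits. Its product is known as a lysosomal exporter of glutamine and asparagine. It was at 43.2 and 44.4 CPM in the controls and at 35.3, 32.4 and 38.8 with IGF-1, so that all IGF-1 libraries lay below both controls. The log2 change was -0.30 (SE 0.09, 95% interval -0.51 to -0.10, adjusted p = 0.195) with all libraries and -0.37 (SE 0.08, adjusted p = 3.30e-04) without replicate 5. That second call held by DESeq2 (0.0128) and with each remaining library left out in turn, with adjusted p from 5.00e-04 to 0.0293.

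Because Slc38a7 led the list, the stretch before its start site is shown, from the RefSeq promoter table of build GRCm38.p6 (chr8:95853492-95853611, minus strand, the 120 bases upstream of the start). Capitals mark an E-box, CACGTG, the core that the lysosomal gene regulators TFEB and TFE3 can bind.
Slc38a7: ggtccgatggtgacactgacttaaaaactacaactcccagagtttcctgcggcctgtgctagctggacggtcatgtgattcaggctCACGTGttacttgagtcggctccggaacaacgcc
The E-box lies 34 to 29 bases before the start. It was present in 7.15% of all 32851 promoters of the table, each 250 bases before to 50 after a start, and in 7 of the 51 promoters of the 36 transporter genes found there, those of Slc38a7, Slc36a1, Slc43a1, Slc7a14, Slc1a6, Slc1a7 and Slc38a5. The match is one of letters and says nothing of binding.

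The other SLC38 genes moved little. Slc38a1 (SNAT1) was at 427 and 417 CPM in the controls and at 447, 467 and 444 with IGF-1, above both controls in each library. The log2 change was 0.10 with all libraries (SE 0.06, adjusted p = 0.541) and 0.11 without replicate 5 (SE 0.04, adjusted p = 0.0359). The call without replicate 5 was lost by DESeq2 (0.111), without scaling factors (0.0727), and with control replicate 1, control replicate 2 or IGF-1 replicate 4 also left out (0.0625, 0.242 and 0.402). Slc38a2 (SNAT2), the carrier gene known for its induction by amino acid shortage, was at 346 and 336 CPM in the controls and at 334, 330 and 365 with IGF-1. Its log2 change of 0.01 had a 95% interval of -0.14 to 0.16, and it was -0.04 (-0.12 to 0.03) without replicate 5.

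Slc38a9, whose product senses arginine at the lysosome and signals to mTORC1, was at 51.9 and 55.7 CPM in the controls and at 52.3, 52.8 and 48.2 with IGF-1, for a log2 change of -0.07 (-0.25 to 0.10). Slc38a10 stood above both controls in each IGF-1 library, at 144, 150 and 160 against 138 and 142 CPM, without passing (log2 0.11, adjusted p = 0.523). Slc38a6 stood below them, at 16.4, 17.4 and 17.4 against 19.0 and 21.2 CPM (log2 -0.23, adjusted p = 0.396; -0.25 and 0.147 without replicate 5). Slc38a3, a glutamine carrier known from astrocytes, was at 7.97 to 10.5 CPM over the 5 libraries with overlapping groups.

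Of the SLC36 carriers, Slc36a1 (PAT1), which exports small amino acids from lysosomes, was at 43.1 and 45.8 CPM in the controls and at 39.7, 40.9 and 31.7 with IGF-1. It was lower in all IGF-1 libraries and lowest in replicate 5. It did not pass with all libraries (log2 -0.25, SE 0.11, adjusted p = 0.392) or without replicate 5 (-0.14, SE 0.08, adjusted p = 0.273). Slc36a4 (PAT4) stood at 45.5 and 47.6 CPM in the controls and at 45.4, 47.3 and 55.5 with IGF-1 (log2 0.09, -0.13 to 0.30). Without replicate 5 its log2 change was -0.009 (-0.15 to 0.14). Slc36a3, on 8 to 19 counts, was at 1.10 and 0.825 CPM in the controls and at 0.606, 0.583 and 0.391 with IGF-1, without passing (log2 -0.87, adjusted p = 0.440). Among the facilitated carriers, Slc43a2 (LAT4) was at 24.4 to 31.5 CPM and Slc43a1 (LAT3) at 1.05 to 1.59 CPM over the libraries, and for both the groups overlapped.

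Of 5 tested SLC1 genes, edgeR called 0 with all libraries, DESeq2 called 0, and 0 had an unadjusted p under 0.05. Slc1a3 was at 123 and 126 CPM in the controls and at 113, 127 and 97.4 with IGF-1 (log2 -0.15, 95% interval -0.36 to 0.07). Slc1a2 was at 82.7 and 76.5 CPM in the controls and at 72.9, 71.8 and 99.2 with IGF-1, so that replicates 3 and 4 lay below both controls and replicate 5 above both. Its log2 change was 0.03 (-0.25 to 0.32) with all libraries and -0.14 (-0.26 to -0.02, unadjusted p = 0.0185, adjusted p = 0.130) without replicate 5. Slc1a1 (EAAC1), a glutamate and cysteine carrier gene, was at 30.5 and 24.1 CPM in the controls and at 24.5, 22.6 and 29.7 with IGF-1, with overlapping groups (log2 -0.09, adjusted p = 0.818, or -0.22, unadjusted p = 0.0268 and adjusted p = 0.164 without replicate 5).

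Of the neutral exchangers in SLC1, Slc1a5 (ASCT2), the glutamine carrier gene often studied in tumors, was at 28.5 and 31.1 CPM in the controls and at 33.1, 33.0 and 29.7 with IGF-1. Its log2 change was 0.10 (-0.10 to 0.31), and 0.15 (-0.02 to 0.32, adjusted p = 0.317) without replicate 5. Slc1a4 (ASCT1), for alanine, serine and cysteine, was at 98.0 CPM in each control and at 100.1 and 107 in IGF-1 replicates 3 and 4, but at 72.1 in replicate 5. Its log2 change was -0.08 (-0.38 to 0.22), and 0.08 (-0.03 to 0.18) without replicate 5.

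In SLC6, the creatine transporter gene Slc6a8 had the smallest p after Slc38a7 when all libraries were used. It was at 181 and 177 CPM in the controls and at 197, 207 and 207 with IGF-1, higher in each IGF-1 library. The log2 change was 0.19 (SE 0.06, 95% interval 0.05 to 0.32, adjusted p = 0.234) with all libraries and 0.17 (SE 0.04, adjusted p = 0.00403) without replicate 5. DESeq2 without replicate 5 gave 0.0349, and the edgeR call was lost when control replicate 2 (0.0506) or IGF-1 replicate 4 (0.143) was also left out. The taurine transporter gene Slc6a6 was at 180 and 170 CPM in the controls and at 169, 168 and 216 with IGF-1, highest in replicate 5 (log2 0.07, -0.16 to 0.30). Without replicate 5 its log2 change was -0.06 (-0.15 to 0.03).

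Slc6a15 was at 117 and 125 CPM in the controls and at 123, 123 and 108 with IGF-1 (log2 -0.04, -0.21 to 0.13), and for Slc6a9 the log2 change was -0.09 (-0.24 to 0.07). Slc6a17, a vesicular carrier gene of neutral amino acids, was at 8.83 to 12.3 CPM with overlapping groups. Slc6a19, a neutral amino acid carrier gene of gut and kidney, was at 2.07 to 2.54 CPM in the first 4 libraries and at 1.03 in replicate 5. Slc6a2 was lower in each IGF-1 library, at 0.331, 0.159 and 0.391 CPM against 0.808 and 0.708, on the few counts given above (log2 -1.34, SE 0.51, adjusted p = 0.320), and since it met the count minimum only through the controls, this difference supports nothing. For Slc6a4, with 0 counts in both controls, the counts with IGF-1 were too few for the test.

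IGF-1 replicate 5 was lowest relative to replicates 3 and 4 for Slc7a11, the xCT gene. Against the mean of those 2 libraries, and among the 28 transporter genes averaging 5 CPM or more, 3 were lower by over 0.5 on the log2 scale and 0 higher, where 3.92% of all 10960 genes of that level were past 0.5 in either direction. The 3 were Slc7a11 (-1.39), Slc7a5 (-0.59) and Slc1a4 (-0.52), and Slc3a2, the partner chain of the first 2, was at -0.44. Slc36a1 (-0.35), Slc1a3 (-0.30) and Slc7a1 (-0.30) were also lower, while Slc1a2 (0.46), Slc7a14 (0.39), Slc6a6 (0.35) and Slc1a1 (0.34) were higher. Other carriers of neutral amino acids went both ways there. Slc43a2 (0.30), Slc36a4 (0.26), Slc38a2 (0.14) and Slc7a6 (0.04) were level or higher, while Slc6a15 (-0.19) and Slc1a5 (-0.15) were lower. This compares 1 library with 2 and has no test.

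Slc7a11 was at 12.8 and 16.1 CPM in the controls, at 15.5 and 15.3 in IGF-1 replicates 3 and 4, and at 5.87 in replicate 5, from 222, 273, 281, 288 and 120 counts. Replicate 5 alone stood apart, at 0.382 times the mean of replicates 3 and 4. The change with IGF-1 was accordingly -0.25 on the log2 scale with a 95% interval of -0.97 to 0.46 with all libraries, and 0.09 (-0.15 to 0.32) without replicate 5.

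The promoters of Slc7a11 and Slc1a4 are shown for their matches to the core of the C/EBP-ATF response element, TGATGNAA, which ATF4 can bind. Both genes were chosen after their low values in replicate 5 were seen, the match says nothing of binding, and the part of ATF4 in those values was not tested. Both come from the RefSeq promoter table of GRCm38.p6 and lie on the minus strand, with chr3:50443614-50443863 giving the 250 bases before the Slc7a11 start and chr11:20332699-20332728 the 15 bases to either side of the Slc1a4 start. Capitals mark the element on either strand.
Slc7a11: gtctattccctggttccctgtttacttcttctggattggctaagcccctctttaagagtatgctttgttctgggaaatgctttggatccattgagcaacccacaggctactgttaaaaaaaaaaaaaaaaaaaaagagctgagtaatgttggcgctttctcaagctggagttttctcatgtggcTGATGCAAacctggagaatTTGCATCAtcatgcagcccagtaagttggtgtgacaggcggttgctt
Slc1a4: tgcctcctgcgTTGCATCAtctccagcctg
In Slc7a11 the element occurs at 66 to 59 bases before the start and, on the opposite strand, at 47 to 40 bases before it. In Slc1a4 it spans the start on the opposite strand. The core was present in 3.97% of all promoters of the table and in 5 of the 51 promoters of the 36 transporter genes found there, those of Slc7a11, Slc1a4, Slc7a7 and Slc6a21. The promoter of Slc7a5 was not analysed here. Slc7a7 was higher in replicate 5 than in replicates 3 and 4 (1.47 against 0.716 and 1.01 CPM), although from 13 to 30 counts.
The promoters were also searched on both strands for the antioxidant response element core, TGACNNNGC, which NRF2 can bind, and for the FOXO site GTAAACA. The former was in 12.4% of all promoters and in 9 of the 51, belonging to 7 genes (Slc36a1, Slc38a2, Slc43a1, Slc6a11, Slc6a9, Slc7a1 and Slc7a6), and the latter in 3.65% and in 2 of the 51, those of Slc36a3 and Slc7a11.

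Genes of the ATF4 stress branch and of amino acid synthesis were low in replicate 5 as well. Of all 10960 genes averaging 5 CPM or more, 3.92% differed by over 0.5 from the mean of replicates 3 and 4, in either direction. Of 15 ATF4 branch genes of that level, 5 were lower by over 0.5 and 1 higher. The 5 were Chac1 (-1.02), which encodes a glutathione-degrading enzyme, the pseudokinase gene Trib3 (19.0 against 34.9 and 41.0 CPM), the transcription factor gene Atf5 (-0.96), the stress gene Nupr1 (-0.92) and Sesn2 (-0.67), a leucine sensor, and the higher gene was Cebpb (0.77). Of 22 amino acid enzyme genes of that level 6 were lower and 0 higher: Psph (-0.81), Phgdh (-0.76) and Psat1 (-0.61) of serine synthesis, Asns (-0.75) of asparagine synthesis, Pycr1 (-0.67) of proline synthesis and Shmt2 (-0.62) of glycine synthesis. Asns, for example, was at 314, 325, 309, 327 and 189 CPM in libraries 1 to 5. These genes were named after their values were seen. Genes of glutathione synthesis and NRF2 gave 1 such gene of 12, Hmox1 (-0.74), and genes of amino acid sensing by mTORC1 gave 0 of 27. The sensing list did not hold Sesn2, which was counted with the ATF4 branch.

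**Figure D4:**
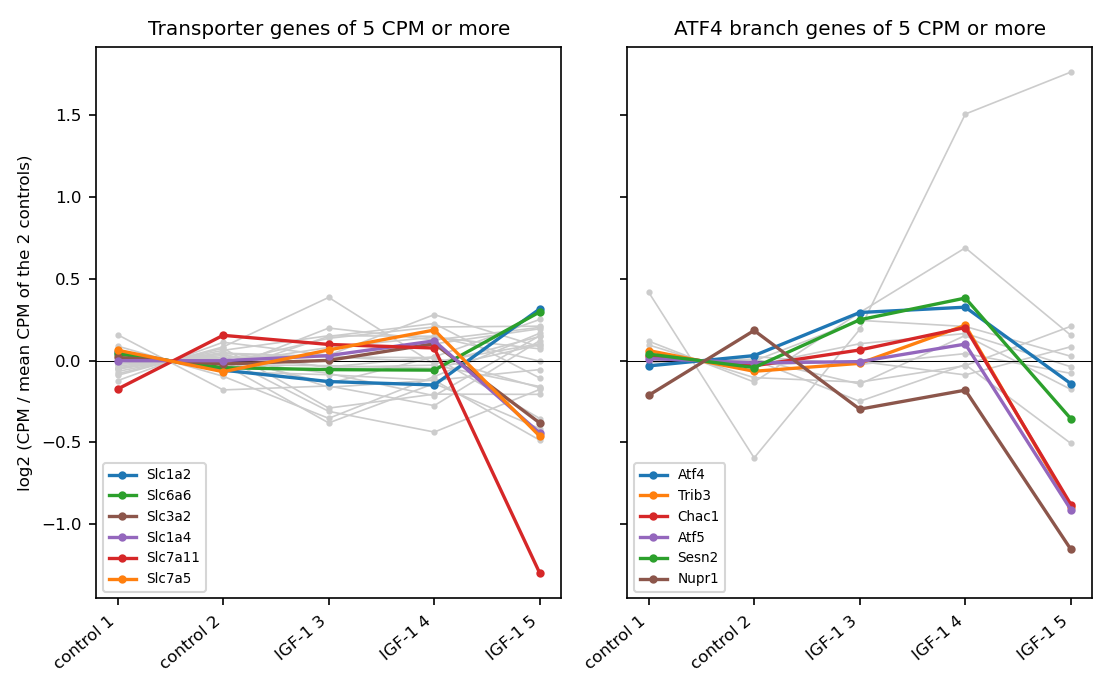
Log2 ratio of CPM in each library to the mean of the 2 controls, for the 28 transporter genes (left) and 15 ATF4 branch genes (right) of 5 CPM or more; a line joins the 5 points of a gene and the order of libraries has no meaning. Slc7a11, Slc7a5, Slc1a4 and Slc3a2, and Chac1, Trib3, Atf5, Nupr1 and Sesn2, drop in IGF-1 replicate 5, while Slc1a2 and Slc6a6 lie higher there.

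Without replicate 5, 5 of 16 ATF4 branch genes rose and 0 fell, with a list median of 0.08, against 0 of 16 called by edgeR and by DESeq2 with all libraries (2 higher and 0 lower unadjusted, median -0.01). Atf4 itself was at 262 and 274 CPM in the controls, at 329 and 336 in IGF-1 replicates 3 and 4, and at 243 in replicate 5. Its log2 change was 0.18 (adjusted p = 0.594) with all libraries and 0.31 (SE 0.04, adjusted p = 1.40e-09) without replicate 5. Also without replicate 5, Sesn2 rose by 0.32 (adjusted p = 0.00182), Cebpg, which encodes a partner of ATF4, by 0.23 (0.00191) and Cebpb by 0.99 (0.00355). Cebpb had few reads and differed between replicates 3 and 4, at 3.25 and 8.10 CPM. With all libraries the log2 changes of Sesn2, Cebpg and Cebpb were 0.12, 0.16 and 1.30 (adjusted p = 0.807, 0.418 and 0.243 by edgeR). DESeq2 without replicate 5 kept the calls of Atf4, Sesn2 and Cebpg. It lost that of Atf3 (adjusted p = 0.137) and gave no adjusted p for Cebpb.

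Of 25 tested genes of amino acid enzymes, edgeR and DESeq2 called 0 with all libraries (0 higher and 2 lower unadjusted, median -0.14). Without replicate 5, edgeR called 1 higher and 1 lower (median -0.003). These counts are near the shares over all genes tested, 5.43% higher and 3.64% lower. The fall was that of Glul, glutamine synthetase, which was lower in all IGF-1 libraries, at 218, 226 and 215 CPM against 266 and 250 (log2 -0.23, adjusted p = 0.136; -0.22 and 4.44e-05 without replicate 5). The rise was that of Odc1, ornithine decarboxylase of polyamine synthesis (0.19, adjusted p = 0.0017). Odc1 was at 155 and 169 CPM in the controls, at 181 and 190 in IGF-1 replicates 3 and 4, and at 138 in replicate 5, below both controls. With all libraries its log2 change was 0.06 (adjusted p = 0.857 by edgeR). Of 14 tested glutathione and NRF2 genes, edgeR called 0 with all libraries, DESeq2 called 0, and 0 had an unadjusted p under 0.05. Their most abundant members were Txnrd1 (log2 0.01) and Cd44 (0.11), the latter the gene of a surface protein that binds xCT.

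Among 28 genes of amino acid sensing by mTORC1, 0 were called by edgeR or DESeq2 with all libraries (1 higher and 2 lower unadjusted, median -0.03). Without replicate 5, edgeR called 3 lower and 0 higher (median -0.05), where 3.64% of all genes tested were called lower and 5.43% higher. The direction depends on how genes were assigned to lists. Sesn2, a leucine sensor counted with the ATF4 branch and not here, rose without replicate 5 (log2 0.32, adjusted p = 0.00182 by edgeR). Fnip1 and Flcn, whose products act together as an activator of the RagC and RagD GTPases, fell by 0.28 and 0.25 (adjusted p = 1.23e-04 and 0.0142), and Sesn3 fell by 0.22 (2.63e-04). DESeq2 without replicate 5 kept the calls of Fnip1 and Sesn3 and lost that of Flcn (adjusted p = 0.130). With all libraries the log2 changes of Fnip1, Flcn and Sesn3 were -0.28, -0.28 and -0.16 (adjusted p = 0.0804, 0.172 and 0.401 by edgeR). All 3 were lower in each IGF-1 library than in both controls, where 33% of all genes tested had no overlap. They were picked by their call from replicates 3 and 4, so their low values in those libraries add nothing to it. Fnip1 was at 73.1, 77.6 and 75.8 CPM against 91.6 and 91.5, Flcn at 40.5 to 43.1 against 48.4 and 54.0, and Sesn3 at 135, 135 and 153 against 157 and 158.

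Carriers of amino acids and transmitters outside the 7 families gave 1 call with all libraries among 14 tested by edgeR, and 1 higher and 1 lower by DESeq2. Over all genes tested, edgeR called 1.02% with all libraries. Ctns, the lysosomal cystine exporter gene, fell from 29.7 and 30.0 CPM in the controls to 21.5, 19.1 and 22.4 with IGF-1 (log2 -0.51, SE 0.10, adjusted p = 0.0475). All IGF-1 libraries lay well below both controls, and without replicate 5 the change was -0.56 (adjusted p = 5.17e-06). The call with all libraries was lost when any of the other 4 libraries was left out in turn, with library totals in place of TMM factors, and by limma-voom. Slc25a22, the mitochondrial glutamate carrier gene, was higher in all IGF-1 libraries, at 19.7, 21.2 and 21.5 CPM against 15.5 and 13.9, and rose without replicate 5 (log2 0.47, adjusted p = 0.0013; 0.50 and 0.0684 with all libraries). Of 8 tested genes of transmitter synthesis and breakdown, edgeR and DESeq2 called 0 with all libraries and 0 had an unadjusted p under 0.05, with Maoa, of monoamine breakdown, at -0.17 on the log2 scale.

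Glial markers were present and those of other cells were few. Genes of oligodendrocyte progenitors such as Pdgfra (530, 531, 519, 510 and 629 CPM in libraries 1 to 5), Sox10, Olig2 and Cspg4 were abundant. The summed level of the 8 genes of that list was 3894 to 4087 CPM in the first 4 libraries and 4618 in replicate 5, and Cspg4, the NG2 proteoglycan gene, rose by 0.17 without replicate 5 (adjusted p = 3.66e-04). The 8 astrocyte markers summed to 180 to 192 CPM, and to 201 in replicate 5, with Aqp4 at 7 to 22 counts. The higher sum came from Aldoc, S100b and Fgfr3, while Gfap was at 0.673 times and Aldh1l1 at 0.310 times their mean in replicates 3 and 4, and the list median against the controls was -0.57 in replicate 5. Neuronal markers summed to 158 and 162 CPM in the controls and to 167 to 174 with IGF-1, most of it Gap43. Several were near 0: Rbfox3 had 0 to 1 counts and Snap25 9 to 21, and the vesicular transmitter carrier genes Slc17a6, Slc17a7 and Slc32a1 had at most 3, 6 and 3. Gad1 and Gad2, of GABA synthesis, had 11 to 34 and 9 to 15 counts. Both had higher CPM in each IGF-1 library than in both controls, without passing (adjusted p = 0.573 and 0.867 by edgeR). The median log2 change of the 8 neuronal markers tested was 0.23 with all libraries and 0.13 without replicate 5. Of the 14 neuronal markers Nefm, a neurofilament gene, rose without replicate 5 by edgeR (0.38, adjusted p = 0.00403) but not by DESeq2 (0.0686), and Syt1 was higher in replicate 5, at 11.3 against 4.68 to 5.56 CPM. The 7 microglial markers summed to at most 1.32 CPM and endothelial markers to 5.62 to 9.22, with replicate 5 the lowest, and fibroblast and pericyte markers to 9.93 to 14.8. With all libraries 0 genes of these lists were called by edgeR or DESeq2, and 1 astrocyte and 2 progenitor genes were higher at an unadjusted p under 0.05. In such bulk libraries, fewer cells of a type and less RNA per cell cannot be told apart, and the part of the progenitor and neuronal markers in the transporter results was not tested.

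Reads shared between genes limit some of these values. Exons of 12 of the 51 genes share bases with an exon of a gene on the opposite strand in the older mouse annotation, among them Slc6a9 with B4galt2, Slc3a1 with Prepl and Slc7a7 with Oxa1l. The sources used here do not say if counting used strand, and without it reads of such pairs cannot be told apart.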

How the data were processed

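RNA sequencing of sorted glioma cells gave 5 libraries, 2 control and 3 IGF-1, grouped by their titles. The deposited values are raw read counts per gene symbol. The submitters' processing notes name build GRCm39 and, among programs, featureCounts 2.0.1, STAR 2.7.9a, DESeq2 1.28.1 and cutadapt 3.4; settings and annotation were not given in the sources used here.

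Genes with at least 10 counts in at least 2 libraries were tested in R 4.3.3 with edgeR 4.0.16 (TMM factors, quasi-likelihood F-test, two-sided, Benjamini-Hochberg over all genes tested, threshold 0.05). The SE is the log2 change divided by the root of F. Alternatives were RLE factors, library totals, filterByExpr, no filter, DESeq2 1.42.0, limma-voom (limma 3.58.1) with and without quality weights, and each library left out; those combined with leaving out replicate 5 were added after seeing the data. With 1 control left, it is assumed to vary like the other group. The procedure was tested on simulated data with no outlying library and with larger changes than those called among the transporter genes. That test therefore does not bear on these calls.

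The members, gene lists and naming rule were chosen with earlier results of these data known. The rule names genes called in either fit, the 20 most abundant members and 10 preset ones; of each list it names up to 4 called genes, or the 2 most abundant. Other genes were named after seeing values. Transcript lengths and promoters are of GRCm38 and were matched by symbol; 36 of 51 members had a promoter. Of the genes the rule names, 2 are not reported here.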

Additional observations from a re-analysis of the deposited data

How the results depend on the processing

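Of all genes tested, 164 were called with all libraries; 606 were called without a filter on low counts, 280 by DESeq2 and 802 with sample quality weights. Leaving out 1 library gave 0 (control replicate 1, with 1109 at an unadjusted p under 0.05 and 41 by DESeq2) to 1425 genes (IGF-1 replicate 5). The other leave-outs gave 2 (control 2), 37 (IGF-1 replicate 3) and 54 (replicate 4). The 0 transporter genes called became 2, Slc6a8 and Slc38a7, with quality weights, and leaving out a library gave 0 to 6; all other alternatives gave 0. The 6 called without replicate 5 became 3 by DESeq2, 4 with library totals (Slc38a1 and Slc7a6 lost), and 2 to 5 with a further library left out: 2 without control replicate 2 (Slc38a7 and Slc1a1, both lower) and 3 without IGF-1 replicate 4.

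Quality weights turned the sign of log2 changes near 0: Slc7a5 0.070, Slc38a2 -0.025, Slc3a2 0.0098, Slc6a6 -0.021, Slc6a15 0.0028, Slc1a4 0.024 and Slc1a2 -0.091. Leaving out 1 library turned others, with the range over the 5 leave-outs Slc7a5 -0.18 to 0.13, Slc38a2 -0.041 to 0.035, Slc3a2 -0.18 to 0.052, Slc6a6 -0.058 to 0.13, Slc6a15 -0.085 to 0.019, Slc1a4 -0.19 to 0.076, Slc1a2 -0.14 to 0.11, Slc36a4 -0.0087 to 0.14, Slc7a2 -0.0070 to 0.089 and Slc7a11 -0.46 to 0.088. Of these, only Slc7a5 was past the threshold after its turn. The cause was not tested. No paired analysis was possible because the groups share no replicate numbers. With 2 controls, small changes such as those of Slc38a1 cannot be separated from the spread of single libraries.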
